A study of Mus musculus with 8 samples.

Results

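The Obox genes (oocyte specific homeobox) were followed in mouse samples labelled as oocytes after low-dose bisphenol S, abbreviated BPS, a chemical that replaces bisphenol A in plastics. The family was taken as 5 genes, Obox1, Obox2, Obox3, Obox5 and Obox6, out of 29455 gene symbols measured, each read from the array row that carries that symbol alone. Each of the 5 symbols had 1 such row. The family was selected on the signal of Obox5, which was higher in BPS arrays, so the differences between BPS and control below describe the data and carry no test. The signals came from 8 Affymetrix MoGene 2.1 ST arrays of RNA labelled as oocyte RNA, 4 from control and 4 from BPS animals, all female ICR mice of 8 weeks on a phyto-oestrogen-free diet. The BPS animals received 0.1 ng per g body weight daily by gavage over 7 days, dissolved in 50% glycerol with 0.1% DMSO. The control animals are labelled as untreated, and no vehicle gavage is named for them. The tissue and extraction fields name oocytes, while the growth and treatment protocols speak of ovaries collected for RNA, so the labels disagree on the tissue. The growth protocol gives 4 animals a group for the transcriptomic experiment, but no label ties an array to an animal, so the spread between arrays may be partly technical.

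Obox genes code for homeodomain proteins that are made in growing oocytes and early embryos. They are rodent relatives of Crx, the cone-rod homeobox gene, and are thought to have arisen as tandem copies beside it. In mouse, Obox1, Obox2, Obox5 and Obox7 are known as maternally supplied members and Obox3 as a member switched on in the early embryo, and the family is known for its part in zygotic genome activation, when the embryo begins to transcribe its own genes. Obox6 is also known as a factor that can raise the efficiency of reprogramming of mouse fibroblasts.

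On GRCm38.p6 the family lies on chromosome 7, where RefSeq annotates 6 protein-coding Obox genes and 45 Obox pseudogenes between 14517971 and 15839679, a span of 1.32 Mb. Obox2 spans 15388851 to 15398545, Obox1 spans 15547257 to 15556846, Obox3 spans 15625306 to 15639777, Obox5 spans 15750370 to 15759274 and Obox6 spans 15833250 to 15839679. Obox7, which is not among the 5, lies apart from them at 14659708 to 14665996. Crx begins 26268 bases beyond the end of Obox6. The pseudogenes are 38 copies of the Obox4 type and 7 of the Obox3 type, and 2 further annotated Obox entries lie outside chromosome 7.

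**Figure D1:**
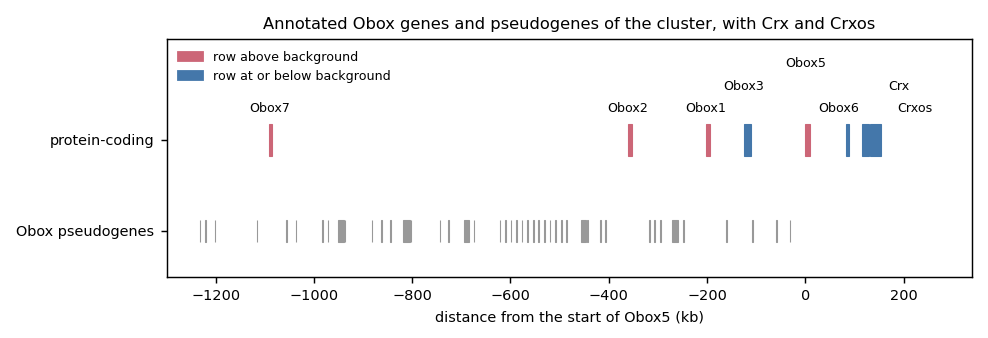
Position of annotated Obox genes and pseudogenes on chromosome 7, with the neighbouring genes Crx and Crxos, as distance in kb from the start of Obox5. Colour shows whether the array row of a protein-coding gene had a mean signal above the background level of 4.54, which Obox1, Obox2, Obox5 and Obox7 did.

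Promoter sequences were available from RefSeq for 4 of the 5 genes (Obox1, Obox2, Obox3, Obox5) and for Obox7, as windows of 250 bases before to 50 after the annotated start. The windows resemble each other over stretches of unequal length. The promoter stretch that Obox5 shares with Obox1, Obox3 and Obox7 is given here, to show how alike these promoters are. It reads 5′ to 3′ along the gene's own strand. A link between this likeness and the array signal was not tested. The stretch was cut to end before the annotated start in all 4 genes, which left 84 bases. Capitals mark bases that differ from Obox5.
Obox5 (chr7:15750260-15750343, plus strand): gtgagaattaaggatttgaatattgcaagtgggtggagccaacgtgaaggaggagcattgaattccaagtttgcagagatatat
Obox7 (chr7:14659624-14659707, plus strand): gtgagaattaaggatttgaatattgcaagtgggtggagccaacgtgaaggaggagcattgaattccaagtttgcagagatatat
Obox1 (chr7:15547159-15547242, plus strand): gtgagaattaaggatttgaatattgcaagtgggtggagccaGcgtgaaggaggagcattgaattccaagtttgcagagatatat
Obox3 (chr7:15639803-15639886, minus strand): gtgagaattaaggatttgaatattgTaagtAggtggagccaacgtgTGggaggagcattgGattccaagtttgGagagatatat

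Counted from 1 at the 5′ end of the stretch, Obox7 was identical to Obox5, Obox1 carried the single substitution A42G, and Obox3 carried 6 (C26T, G31A, A47T, A48G, A61G and C74G). The first 25 bases of the stretch were chosen as a run that Obox5, Obox7, Obox1 and Obox3 share exactly, so their matches were given. The run occurred in 5 of 32851 promoter windows in the mouse table, all 5 of them Obox windows. The fifth was Obox2, in which the stretch begins 1 base before the annotated start. Over the best local alignment of whole windows, Obox1 and Obox2 were identical over 203 bases, Obox5 and Obox7 were 97.1% identical over 273 alignment columns, and Obox3 and Obox5 were 92.6% identical over 175. The shortest best alignment was that of Obox2 and Obox3, which were 90.3% identical over 62.

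Motifs were searched on both strands as plain letters. The letters TATATAA were added to the search after the sequences were seen. They began 31 bases before the annotated start in Obox5, 30 in Obox3, 19 in Obox1 and 5 in Obox7, and occur in 3.2% of all windows. CANNTG, the general E-box, matched in Obox1, Obox2, Obox5 and Obox7 and in 72.3% of all windows. TAATCC, the core read by bicoid-type homeodomains such as OTX and CRX, matched only in Obox3 among the 5 Obox windows, and in 7.1% of all windows. TATAAA also matched only in Obox3, against 13.6% of all windows. The homeodomain core TAATTA matched in no Obox window, against 5.3% of all windows. The core TAATTG, known for NOBOX, also matched in none, against 8.0%. The palindromic E-box CACGTG, a special case of the general E-box, matched in none as well, against 7.2%.

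**Figure D2:**
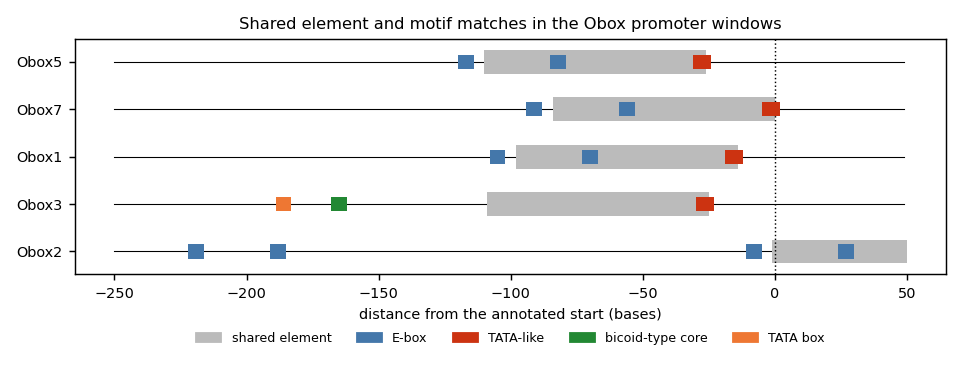
Promoter windows of 5 Obox genes as distance in bases from the annotated start (dotted line), with the shared stretch in grey and motif matches as coloured blocks. The stretch lies before the start in Obox5, Obox7, Obox1 and Obox3 and begins 1 base before the start in Obox2.

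Signals are log2 values of RMA, a method that corrects background, normalises arrays to each other and sums the probes of a row. The background level, 4.54, was set at percentile 95 of the row means of 1570 rows for Y-linked genes and olfactory and vomeronasal receptors. Array medians lay between 4.15 and 4.21 and correlations between arrays between 0.941 and 0.982. In the check of the labelled cell type, all 13 oocyte markers lay above background, with a median level of 9.84, against 1 of 11 granulosa and cumulus cell markers, 0 of 8 theca and stroma markers and 0 of 5 blood cell markers. The granulosa marker above background was Inha, the inhibin alpha subunit. The summed log2 level of the granulosa markers ran from 45.4 to 46.3 in control and from 46.3 to 48.0 in BPS arrays, while Amh, Fshr, Foxl2 and Cyp19a1 were below background in all 8 arrays. That of the oocyte markers ran from 120.9 to 123.0 and from 122.0 to 123.9. In the authors' workbook the arrays of replicates 1 and 2 of each group have names ending in a number and those of replicates 3 and 4 names ending in a letter, and 1899 of 34472 rows (5.51%) differed between these name series at a limma adjusted p under 0.05. Each series holds 2 replicate numbers, and that fit takes arrays of the same number as independent. With the number as a random block, added after the data were seen, 1204 rows (3.49%) differed.

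Of the 5 genes, Obox1, Obox2 and Obox5 had a mean signal above background, and Obox3 and Obox6 lay below it. Obox2 had a signal of 10.54, 10.80, 10.95 and 10.56 in the 4 control arrays and 10.74, 10.77, 10.83 and 10.89 in the 4 BPS arrays, each in the order of replicates 1 to 4. The BPS values lay inside the control range. The control arrays averaged 10.71 ± 0.20 (SD, n = 4) and the BPS arrays 10.81 ± 0.07 (SD, n = 4), a log2 difference of 0.10.

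Obox1 gave 8.47, 8.70, 8.82 and 7.67 in control and 9.13, 8.89, 8.33 and 9.14 in BPS arrays. Control replicate 4 was the lowest and BPS replicate 3 the next lowest, and the groups overlapped. The means were 8.42 ± 0.52 (SD, n = 4) and 8.87 ± 0.38 (SD, n = 4), a log2 difference of 0.46 that was 0.21 without control replicate 4.

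Obox5 was the row for which the family was picked. Its array values were 4.73, 4.45, 4.70 and 4.56 in control and 4.92, 5.25, 5.14 and 5.47 in BPS arrays. All 4 BPS values lay above all 4 control values, with 0.19 between the highest control and the lowest BPS array. The means were 4.61 ± 0.13 (SD, n = 4) and 5.20 ± 0.23 (SD, n = 4), a log2 difference of 0.59 or 1.5-fold. The control level was close to background, with 1 of the 4 control arrays below it. Obox5 was the 1 member of 5 with BPS values that did not overlap and were higher, beside 4.13% of all rows and 7.20% of rows above background, and since this contrast chose the family nothing is read from the count. In the number-named arrays the difference was 0.50 and in the letter-named arrays 0.68, and without BPS replicate 4, the highest array, it was 0.49. In BPS replicate 4 the Inha signal was also the highest of the 8 arrays, 6.56 against 4.50 to 5.34 in the other arrays, and its part in the Obox5 value was not tested. In such bulk arrays fewer cells of a type and less RNA per cell cannot be told apart.

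**Figure D3:**
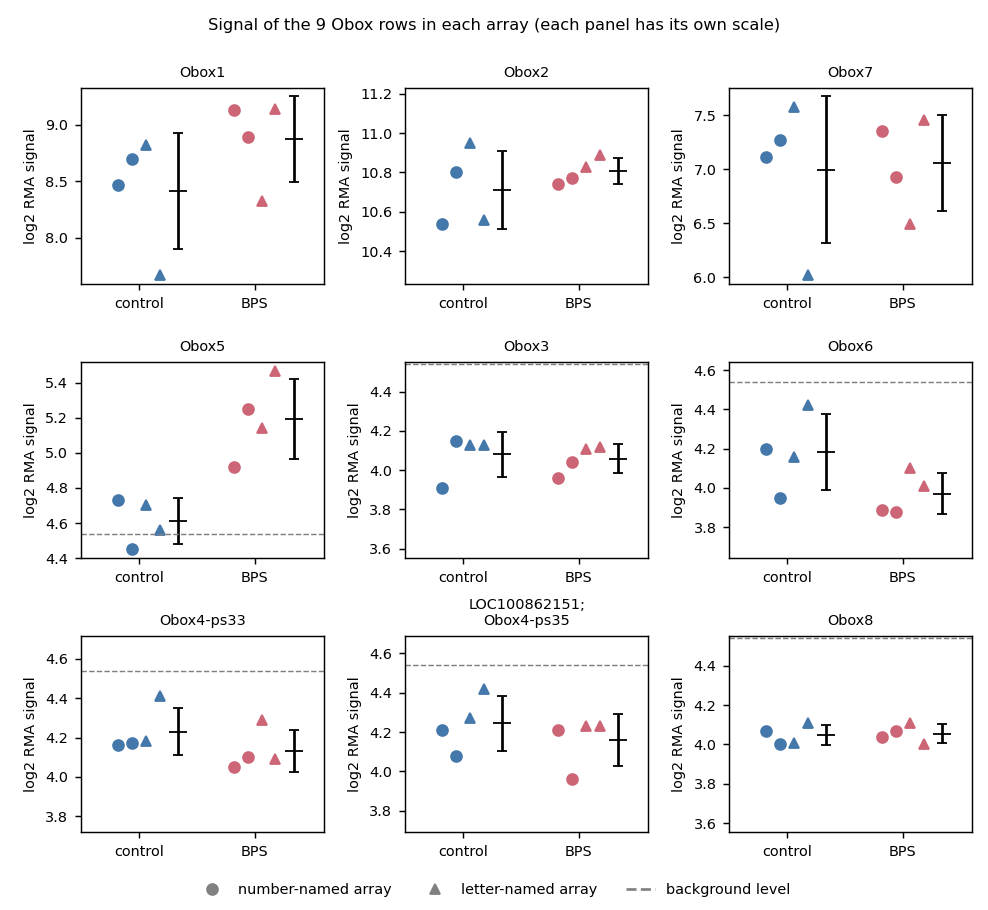
Log2 RMA signal of the 9 array rows whose symbol cell holds an Obox name, in each of 4 control and 4 BPS arrays, with mean and SD over 4 arrays in black and the background level of 4.54 as a dashed line where it falls in the panel. Obox5 is the panel in which the 4 BPS points, 4.92 to 5.47, all lie above the 4 control points, 4.45 to 4.73.

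The signals of Obox3 and Obox6 were below background in every array. Obox3 gave 3.91, 4.15, 4.13 and 4.13 in control and 3.96, 4.04, 4.11 and 4.12 in BPS arrays, with a difference of -0.02 that took both signs when 1 array was left out. Obox6 gave 4.20, 3.95, 4.16 and 4.42 in control and 3.89, 3.88, 4.10 and 4.01 in BPS arrays. Its groups overlapped, and its log2 difference was -0.21.

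Another 4 rows hold an Obox symbol. Obox7, a maternal member, gave 7.11, 7.27, 7.58 and 6.02 in control and 7.35, 6.93, 6.49 and 7.46 in BPS arrays, with means of 7.00 ± 0.68 (SD, n = 4) and 7.06 ± 0.44 (SD, n = 4). The groups overlapped over most of their range, and the difference of 0.06 became -0.26 without control replicate 4 and 0.26 without control replicate 3. After quantile normalisation it was -0.06. Obox8, Obox4-ps33 and the row shared by LOC100862151 and Obox4-ps35 were below background in all 8 arrays, with signals between 3.96 and 4.42. Within the cluster the array also has 3 rows matched to genes other than Obox, and 0 of them lay above background. Probe sequences were not analysed here, and rows of such similar genes may share signal, so each Obox value is uncertain as to the copy it measures.

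**Figure D4:**
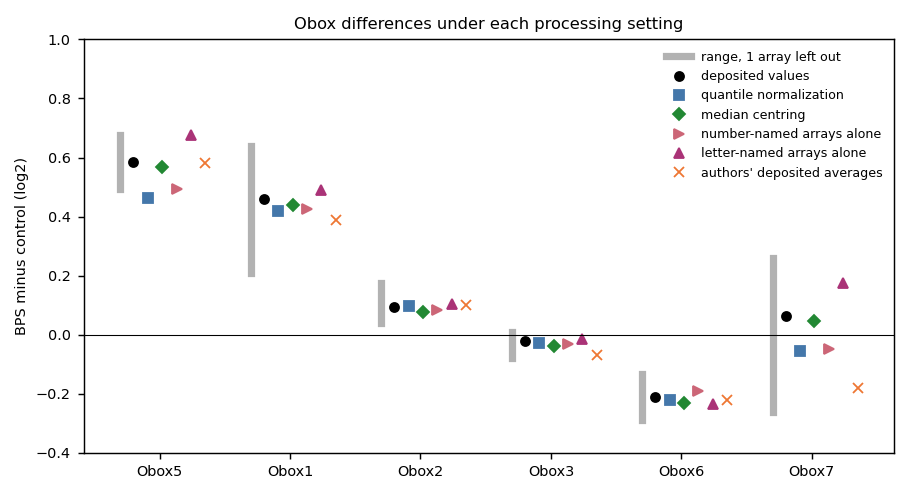
Log2 difference, BPS minus control, of the 5 members and Obox7 with the deposited values and under other settings, and as a grey bar its range when 1 array is left out. Obox5 lies between 0.46 and 0.68 over the settings shown, and Obox7 takes both signs. With groups that do not overlap, Obox5 had to stay positive on leaving out 1 array or taking 1 name series alone.

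The differences of the 5 genes were read beside those of all rows. Over rows above background the median log2 difference was 0.12, and it was 0.00 after quantile normalisation, a rescaling that gives every array the same distribution. Obox5 was 0.46, Obox1 0.42 and Obox2 0.10 after it. Across 13 alternatives the difference of Obox5 ran from 0.46 to 0.68. That of Obox1 ran from 0.21 to 0.64 and that of Obox2 from 0.04 to 0.17, all positive. That of Obox6 ran from -0.29 to -0.13, all negative. As the Obox5 groups do not overlap, its difference had to stay positive on leaving out 1 array or taking 1 name series alone. Nothing is read from its sign. Over all 34472 rows, limma called 3 rows between BPS and control (0.00870%), with the replicate numbers as a block 685 (1.99%), and with the name series of the arrays as a block 1195 (3.47%).

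The name series of the arrays was not used in choosing the family and could be tested. None of the 5 genes passed a limma adjusted p under 0.05 for number-named against letter-named arrays, beside 5.51% of all rows, and 1 of the 5 (Obox6) had an unadjusted p under 0.05, beside 21.6% of all rows. With the replicate number as a random block the unadjusted p of Obox6 in limma was 0.0552, and the adjusted p of the 5 genes lay between 0.275 and 0.658. Obox1 was 0.31 ± 0.27 (SE) higher in the number-named arrays (limma adjusted p = 0.545), Obox2 differed by -0.10 ± 0.09 (SE, limma adjusted p = 0.598) and Obox5 by -0.13 ± 0.11 (SE, limma adjusted p = 0.549). Obox6 differed by -0.19 ± 0.08 (SE, limma adjusted p = 0.206) and Obox3 by -0.11 ± 0.06 (SE, limma adjusted p = 0.338). The difference of Obox1 between the series was 0.07 without control replicate 4, 0.15 without BPS replicate 3, 0.53 without control replicate 3 and 0.48 without BPS replicate 4. That of Obox2 was -0.02 without control replicate 3, -0.05 without control replicate 1, -0.15 without control replicate 2 and -0.18 without control replicate 4, and that of Obox3 was -0.06 without control replicate 1. That of Obox5 was -0.05 without BPS replicate 1 or 4, -0.20 without control replicate 1 and 0.02 after quantile normalisation. With 4 arrays of each kind these p-values do not show that the series were alike.

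The 2 array values that stood lowest for Obox1 were also lowest for Obox7. Over the 8 arrays Obox1 and Obox7 correlated at r = 0.882 (exact permutation p = 0.0118, adjusted over 6 pairs p = 0.0705) and Spearman's rho = 0.738 (exact permutation p = 0.0458, adjusted p = 0.275), both two-sided. The permutations moved all 8 arrays freely, so these p-values ignore group, name series and replicate number. The 6 pairs include those of Obox5. Without the 2 arrays farthest from the Obox1 median r was 0.377, with the group means kept. The remaining arrays of each group still ranked in the same order for Obox1 and Obox7. After removal of the group means r was 0.985 over all 8 arrays. Within the 4 number-named arrays it was 0.304 and within the 4 letter-named arrays 0.947. Obox2 correlated with Obox1 at r = 0.614 and with Obox7 at r = 0.571, both at an adjusted exact permutation p of 0.286. The family was selected on the group difference of Obox5, so its correlations are given with no p. They were 0.497 with Obox1, 0.394 with Obox2 and 0.15 with Obox7, and 0.135, 0.196 and 0.196 after removal of the group means.

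**Figure D5:**
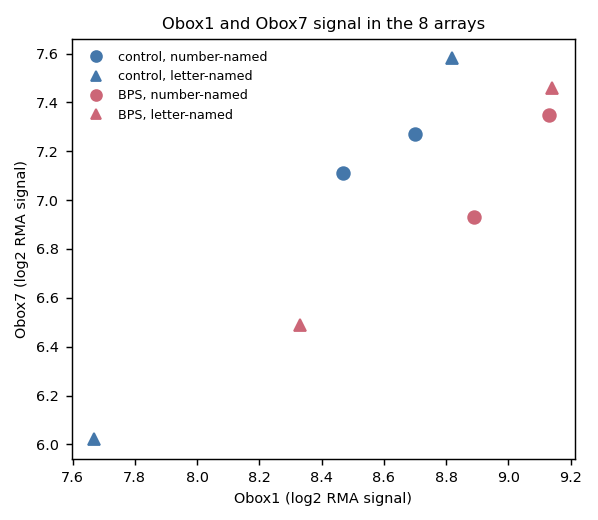
Log2 RMA signal of Obox7 against that of Obox1 in each of the 8 arrays, with colour for group and shape for the series of array names. Control replicate 4 (7.67 and 6.02) and BPS replicate 3 (8.33 and 6.49) hold the lowest 2 values of both rows.

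Genes whose signal followed a member most closely were sought among 8909 symbols above background, by Pearson's r over the 8 arrays, as a description. For Obox5 they were Zfp597 (r = 0.988), a zinc finger gene, 5730507C01Rik (0.985) and Necap2 (0.976), a gene of clathrin-coated vesicles. Their r after removal of the group means were 0.966, 0.962 and 0.908. For Obox1 they were Mettl7a3 (0.966), Ppp4c (0.961), the catalytic subunit of protein phosphatase 4, and Ddx39b (0.956), an RNA helicase of mRNA export. For Obox2 they were Uqcr11 (0.992), a subunit of respiratory complex III, LOC102631912 (0.969) and ND5 (0.966), a mitochondrially encoded subunit of complex I. The nearest rows to Obox3 (Mov10, mt-Th and Tcl1b5, r between 0.973 and 0.981) and to Obox6 (Gm13561, Dcun1d1 and Hap1, r between 0.957 and 0.985) follow rows that are themselves below background. These are the highest values among all candidates over only 8 arrays.

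Genes around the Obox family were read from lists chosen with earlier results of these data known. Among genes that mouse embryos transcribe at the 2-cell stage, 8 of 24 measured lay above background, 0 were called higher or lower by limma, and 3 had an unadjusted p under 0.05, beside 3827 of all 34472 rows (11.1%). For that list the median difference was 0.02, beside 0.03 for all rows. Zscan4a, of a zinc finger family that marks that stage, gave 5.51, 5.49, 5.99 and 5.50 in control and 6.0, 6.52, 6.33 and 7.27 in BPS arrays. The lowest BPS value lay just above the highest control value, and the groups differed by 0.91 ± 0.26 on the log2 scale (SE, limma adjusted p = 0.371). After quantile normalisation the Zscan4a difference was 0.73. Tcstv3 differed by 0.56 ± 0.20 (SE, limma adjusted p = 0.402) and Tdpoz1 by -0.26 ± 0.18 (SE, limma adjusted p = 0.598), both with overlapping groups. The rows of Zscan4d and Zscan4f, also above background, differed by 0.18 and 0.13, with overlapping groups. Those of Zscan4c, Zscan4b and Zscan4e, below background in mean signal, differed by 0.165, -0.095 and -0.075, also with overlapping groups. Zscan4 copies are near-identical, and their rows may share signal.

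Among 24 maternal factors of zygotic genome activation 18 lay above background and 0 were called (2 at an unadjusted p under 0.05, beside 11.1% of all rows), with a median difference of 0.03. Dppa4, a chromatin-binding factor that acts upstream of Dux in mouse, gave 5.04, 5.12, 5.35 and 5.23 in control and 5.47, 5.68, 5.65 and 6.14 in BPS arrays. Its groups did not overlap, and the difference was 0.55 ± 0.14 (SE, limma adjusted p = 0.359). The limma adjusted p of Dppa4 was 0.0435 with the array-series block and 0.0763 with the replicate block. Its difference was 0.38 after quantile normalisation. Zar1, a maternal RNA-binding protein gene, differed by -0.38 ± 0.14 (SE, limma adjusted p = 0.408), and by -0.32 after quantile normalisation. The limma adjusted p of Zar1 was 0.0299 with the array-series block and 0.0773 with the replicate block. Trim24, a transcription cofactor, differed by -0.20 ± 0.15 (SE, limma adjusted p = 0.616). BPS replicate 4 had the highest value of the 8 arrays for Obox5, Zscan4a and Dppa4. It was also highest for Obox1, Inha, Figla, Zscan4d and Zscan4f, but not for Obox2, Obox7, Tcstv3 or Zar1. The share of all rows with their highest value in that array was not counted, so nothing particular to these genes is read from it.

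Of 8 measured oocyte regulators, the transcription factors of folliculogenesis and the receptor Kit, 6 lay above background and 0 were called (0 at an unadjusted p under 0.05, beside 11.1% of all rows), with a median difference of 0.04. Figla, the bHLH factor that switches on zona pellucida genes, differed by 0.44 ± 0.20 (SE, limma adjusted p = 0.461), with overlapping groups. The limma adjusted p of Figla was 0.0368 with the replicate block and 0.0965 with the array-series block. Its difference was 0.275 after quantile normalisation. Sohlh2 differed by 0.08 and Taf4b by -0.04. Of 40 measured PRD-class and related homeobox genes 1 lay above background and 0 were called (1 at an unadjusted p under 0.05, beside 11.1% of all rows). The gene above background was Sebox, a maternal homeobox gene, whose control arrays averaged 7.39 ± 0.25 (SD, n = 4) and BPS arrays 7.34 ± 0.29 (SD, n = 4). Crx and Crxos, the homeobox genes next to the Obox cluster, were below background in mean signal, at 4.03 and 4.00.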

How the data were processed

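RNA with an integrity number above 8 was hybridised, per the labels' extraction protocol, which names oocytes where other fields name ovaries. The authors deposited log2 RMA signals per row, made with the Transcriptome Analysis Console (no version given) and annotated with NetAffx release 36 on mm10, per the file headers and the submitters' processing notes. All 8 signal columns of the workbook equalled a series matrix column at 2 decimals. The deposited workbook also holds the authors' averages, p-values and a signed fold score, by an unstated test.

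BPS was compared with control over 34472 rows with limma 3.58.1 (R 4.3.3), two-sided, without a block, with Benjamini-Hochberg adjustment at 0.05. This main fit has no block because the labels name none. The fit was tested on simulated data. After removal of group means, arrays with the same number correlated at 0.519, 0.383, 0.173 and 0.362. By the rule that each exceed 0.1 the numbers of the titles were taken as pairing the arrays, though the labels do not say what they share. Each number lies within a single name series, and arrays of different numbers were not compared. The rule therefore cannot tell a shared number from a shared name series. With group and name series in the model, the correlation of same-numbered arrays estimated over all rows was 0.133. Alternatives were quantile normalisation, median centring, level filters, limma-trend, both blocks, leaving out each array and, for the name series alone, the replicate number as a random block (duplicateCorrelation), added after the data were seen. Each of the 5 symbols has 1 row, so a mean over rows was not an alternative.

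Members, lists and named genes were chosen with earlier results of these data known. By rule the text names the members, other Obox rows, the 3 genes most correlated with each member, and from each list genes past the threshold or the 3 above background with the largest difference. The other Zscan4 rows were named beside Zscan4a outside this rule. Sequences are from RefSeq on GRCm38.p6, the build of the array annotation, and were aligned with Biopython 1.88 (match 2, mismatch -3, gap opening -5, gap extension -2). Protein sequences were not used here. Python 3.11.15, pandas 2.3.3 and matplotlib 3.10.9 were used. With 4 arrays a group, precision is limited by their number.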

Additional observations from a re-analysis of the deposited data

Results flagged for a closer look

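In 3 of 18 groups of 4 arrays, 1 array stood apart from the other 3 by a Dixon test, which chance gives in about 1 of 20 groups. They were the lowest control array of Obox3 (3.91), the highest control array of Obox4-ps33 (4.41) and the lowest BPS array of the row shared by LOC100862151 and Obox4-ps35 (3.96). All 3 rows were below background in every array.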

How the results depend on the processing

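All 65 recomputed BPS-minus-control differences of the 5 genes moved by less than the spread between arrays. On leaving out 1 array this had to hold by arithmetic, so the count says little about stability. Obox3 turned positive in 2 of its 13 (0.01 without BPS replicate 1 and 0.00 without control replicate 2). All 55 recomputed name-series differences stayed on the same side of the threshold, though sizes moved and Obox5 turned positive after quantile normalisation (0.02). The count of 3 rows between BPS and control became 0 after quantile normalisation (3753 at an unadjusted p under 0.05) and with limma-trend (3950), 1 after median centring, 685 with the replicate block, 1195 with the array-series block and 611 with quantile normalisation and the array-series block, and lay between 0 and 3 on leaving out 1 array. It was 0 on leaving out control replicate 1, 2, 3 or 4 or BPS replicate 4 (2829 to 3511 at an unadjusted p under 0.05). The count of 1899 rows between name series (327 higher in number-named arrays) was 979 after quantile normalisation (442 higher) and 1204 with the replicate number as a random block, and lay between 714 and 1716 on leaving out 1 array. Leaving out control replicate 1 gave 714, control replicate 4 gave 1059, and BPS replicates 1 to 4 gave 729, 814, 918 and 864. Of the 1195 rows with the array-series block 958 were higher in BPS, and of the 611 with quantile normalisation 345. The cause of these shifts was not tested. Among the list genes named, the replicate block changed the call of Figla alone, and the array-series block those of Dppa4 and Zar1. Small differences of rows below background do not show that a gene did not change.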

Other observations

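In the authors' deposited table some group averages differ from the arithmetic means of the arrays. For Obox7 that table gives 7.30 in control and 7.12 in treated arrays, a difference of -0.18, while the means of the 4 arrays differ by 0.06. For Obox1 the authors' deposited table gives 8.66 and 9.05, a difference of 0.39, and for Obox5 4.62 and 5.20, a difference of 0.58.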
